A study of Sus scrofa with 120 samples.

Results

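After physiologic loading, 4 libraries of cyclically compressed cartilage constructs harvested 9 h after the start of stimulation were compared with 4 libraries of vehicle-treated, free-swelling constructs of the same time. They were chosen by their titles, and make up 8 of the 48 RNA-sequencing libraries of the TRPV4 experiment and of 120 libraries in the series. The cells were primary chondrocytes from pig femoral cartilage, labelled WT/NT for genotype and cast in 2% agarose. Loading was unconfined compression at 10% peak-to-peak deformation and 1 Hz for 3 h, so that it had ended 6 h before the harvest. The DMSO group received the vehicle and was not loaded. The column names of the deposited counts carry dmso for loaded libraries and controls alike. The sample labels do not state whether the medium of the loaded group held DMSO. The series asks which genes respond when TRPV4 or PIEZO1, calcium-permeable channels of chondrocytes, are activated. Used beside the 8 libraries were loading and DMSO at 3 h, when loading had just ended, and loading with the TRPV4 antagonist GSK205 and GSK205 alone at 9 h. At 9 h, levels are also given for constructs with IL-1, an inflammatory cytokine, at 1 ng/mL or with GSK101, a TRPV4 agonist, at 1 nM. Each group held 4 libraries. The series' text gives GSK205 as 10 uM and the sample labels as 10 mM. The labels do not state whether libraries of 1 group stem from different animals or cultures, so p-values measure the spread between these libraries, which may be technical.

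Chondrocytes are the only cells of articular cartilage and keep up a matrix of type II collagen, which resists tension, and of aggrecan, a proteoglycan that holds water and resists compression. Joint loading deforms this matrix and opens calcium channels in the cell membrane. Calcium then acts through calcineurin, NFAT and CREB on transcription, and loading is known to act through TGF-beta, BMP and growth factor signals on matrix synthesis. A harvest several hours after loading shows which changes outlast the stimulus or begin after it.

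The 8 libraries held 24190041 to 60431543 counts, and loading replicates 1 and 2 were the deepest, at 60431543 and 59813366 counts. Chi-square comparisons of libraries within a group gave at least 5.84 per degree of freedom over 12 pairs, so every pair differed by more than sampling noise. Small RNAs took 5.54 to 8.31% of the counts in DMSO and 6.47 to 9.44% after loading (exact two-sided permutation p = 0.46, adjusted over 10 such measures 0.58). Long non-coding RNAs took 2.23 to 2.38% in DMSO and 1.98 to 2.03% after loading. Mitochondrial ribosomal and transfer RNAs took 0.439 to 0.596% and 0.351 to 0.376%. Neither of these 2 shares overlapped between the groups (exact two-sided permutation p = 0.029 for each, the smallest that 4 against 4 libraries can give, and adjusted p = 0.15 for each). The part of these shares in the results was not tested.

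The cells carried the markers of chondrocytes. All 12 chondrocyte markers were detected, but UCMA lay under 1 CPM (counts scaled to a common library size) in all 8 libraries. The summed level of the 12 markers was 82884 to 87019 CPM in DMSO and 80170 to 89705 CPM after loading. The most abundant of them, COL2A1, the type II collagen gene, had levels of 43421, 44188, 46223 and 42516 CPM in DMSO and 41445, 48625, 45497 and 43445 CPM after loading. Its groups overlapped, and the log2 fold change was 0.00 ± 0.05 (SE, edgeR adjusted p = 0.97). ACAN, the aggrecan core protein gene, had 17295 to 18317 CPM in DMSO and 14843 to 16487 CPM after loading. All 4 loading libraries lay below all 4 DMSO libraries, and ACAN fell by 0.20 ± 0.05 on the log2 scale (adjusted p = 0.0034). SOX9, the factor that establishes the chondrocyte fate, fell by 0.18 ± 0.05 (adjusted p = 0.0093), from 501 to 527 CPM in DMSO to 444 to 480 CPM. The list went both ways: of the 12 markers 3 rose and 2 fell, the latter ACAN and SOX9. Over all genes tested 12.5% rose and 11.2% fell. Among the rises was COMP, from 1736 to 2000 CPM in DMSO to 2347 to 2739 CPM after loading. In bulk samples fewer cells of a type and less RNA per cell cannot be told apart.

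Markers of other cell types were low. Fibroblast and synovial markers summed to 452 to 488 CPM in DMSO and 459 to 560 CPM after loading. Leukocyte markers summed to 28.9 to 35.8 CPM and 34.3 to 40.9 CPM (exact two-sided permutation p = 0.057, adjusted over 7 marker sums 0.3), with LYZ at 0 counts and 6 of 10 markers under 1 CPM in all 8 libraries. Endothelial markers reached at most 9.41 CPM, bone markers 9.37 CPM, muscle markers 3.49 CPM and adipocyte and erythroid markers 2.07 CPM.

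The channels that the study is about did not pass the test. TRPV4 had levels of 554 to 616 CPM in DMSO and 577 to 625 CPM after loading, a log2 fold change of -0.01 ± 0.06 (adjusted p = 0.94). PIEZO1 had 89.3 to 94.5 CPM and 81.2 to 98.7 CPM, a log2 fold change of -0.05 ± 0.08 (adjusted p = 0.72). For both channels the loading and DMSO libraries overlapped. The gene model named GAPDH, a glycolytic enzyme often taken as a reference, held only 4.23 to 5.43 CPM in DMSO and 4.86 to 5.32 CPM after loading, with a log2 fold change of 0.05 ± 0.14 (adjusted p = 0.85).

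At 6 h after the end of loading, expression differed widely but mostly by small amounts. Of 16540 genes tested, 3926 passed an adjusted p of 0.05 (23.7%). Of these, 2068 were higher after loading (12.5% of the genes tested) and 1858 lower (11.2%). The median size of a called change was 0.29 on the log2 scale, a 1.22-fold change, and 81.5% of the called changes were below 1.5-fold. Changes of at least 2-fold were called for 387 genes (2.34%), 55 higher (0.333%) and 332 lower (2.01%). Over all genes the median log2 fold change was 0.01. The loading and DMSO libraries did not overlap for 4401 genes (26.6%), with loading above in 2473 (15% of genes tested) and below in 1928 (11.7%).

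**Figure D1:**
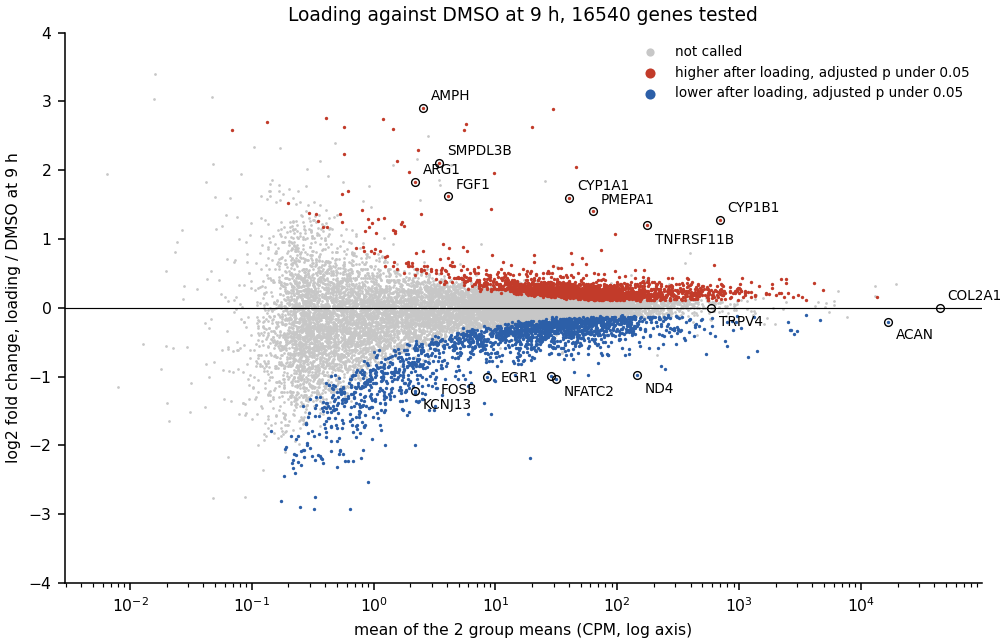
Log2 fold change of loading against DMSO at 9 h for each gene tested (y axis) against the mean of the group means in CPM (log x axis); red and blue points passed an adjusted p of 0.05, and 4 genes lie beyond the y axis. Most called changes are small at high levels, TNFRSF11B and CYP1B1 stand above the mass of called rises, and most changes of 2-fold or more are falls of genes at low levels.

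The largest changes are described for called genes that averaged at least 2 CPM and whose 4 loading libraries all lay on one side of all 4 DMSO libraries, so the separation of the groups is part of that choice and no result. The 12 largest rises of this kind included a TGF-beta feedback gene, a growth factor, a decoy receptor and a pair of xenobiotic enzymes. PMEPA1, a membrane protein that TGF-beta induces and that dampens TGF-beta signalling (chromosome 17, 57999287 to 58054329, RefSeq on Sscrofa11.1), had 36.9, 30.1, 38.6 and 31.8 CPM in DMSO and 79.1, 110, 85.8 and 89.8 CPM after loading. The log2 fold change was 1.40 ± 0.10 (adjusted p = 8.6e-12). FGF1, the gene of a fibroblast growth factor that binds all FGF receptors (chromosome 2, 144133846 to 144241345), had 2.02, 1.82, 1.88 and 2.18 CPM in DMSO and 5.12, 7.68, 5.97 and 5.81 CPM after loading. It rose 3.08-fold, at 1.62 ± 0.19 on the log2 scale (adjusted p = 2e-07). TNFRSF11B, the gene of osteoprotegerin, the decoy receptor that keeps RANKL from its receptor on osteoclast precursors (chromosome 4, 19850212 to 19879132), had 105 ± 3.45 CPM in DMSO (SD, n = 4) and 232, 237, 252 and 262 CPM after loading. Its libraries agreed closely within each group, and it rose by 1.21 ± 0.06 (adjusted p = 3.4e-15).

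CYP1A1 and CYP1B1, cytochrome P450 enzymes that oxidise aromatic compounds and are targets of the aryl hydrocarbon receptor, rose together. CYP1A1 (chromosome 7, 58802887 to 58809155) had 20.1, 18.4, 20.3 and 20.6 CPM in DMSO and 50.1, 78.1, 51.2 and 64.5 CPM after loading. It rose by 1.60 ± 0.11 (adjusted p = 8.6e-12). CYP1B1 (chromosome 3, 102195743 to 102205687) was the most abundant gene among the largest rises, at 394, 408, 406 and 392 CPM in DMSO and 897, 1062, 925 and 1038 CPM after loading, and rose by 1.28 ± 0.06 (adjusted p = 3.4e-15).

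Another 6 of these 12 rises were of genes at lower levels. SMPDL3B, a lipid-modifying phosphodiesterase, went from 1.30 ± 0.479 CPM in DMSO to 5.63 ± 0.732 CPM (SD, n = 4), a log2 fold change of 2.10 ± 0.20 (adjusted p = 6.1e-09). ARG1, arginase 1, went from 0.923 to 3.45 CPM and rose by 1.83 ± 0.16 (adjusted p = 2.2e-09). MT1A, a metal-binding metallothionein whose reads may be shared with near-identical copies, went from 3.79 to 7.03 CPM and rose by 0.89 ± 0.15 (adjusted p = 3.6e-05). NETO2, an accessory protein of glutamate receptors, went from 2.74 to 3.21 CPM in DMSO to 4.51 to 6.13 CPM after loading and rose by 0.87 ± 0.14 (adjusted p = 4.5e-05). NFAM1, an immunoreceptor-type membrane protein, varied widely in DMSO, at 7.31, 4.18, 2.06 and 2.09 CPM against 10.9, 12.2, 21.1 and 17.6 CPM after loading, with a log2 fold change of 1.96 ± 0.56 (adjusted p = 0.01). AMPH, a membrane-bending protein of endocytosis, had the largest fold change of the 12, 2.91 ± 0.70 (adjusted p = 0.0026), but its levels after loading were 1.47, 1.39, 14.4 and 0.775 CPM. Replicate 3 stood apart, and without it the log2 fold change was 1.08 (adjusted p = 0.15).

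**Figure D2:**
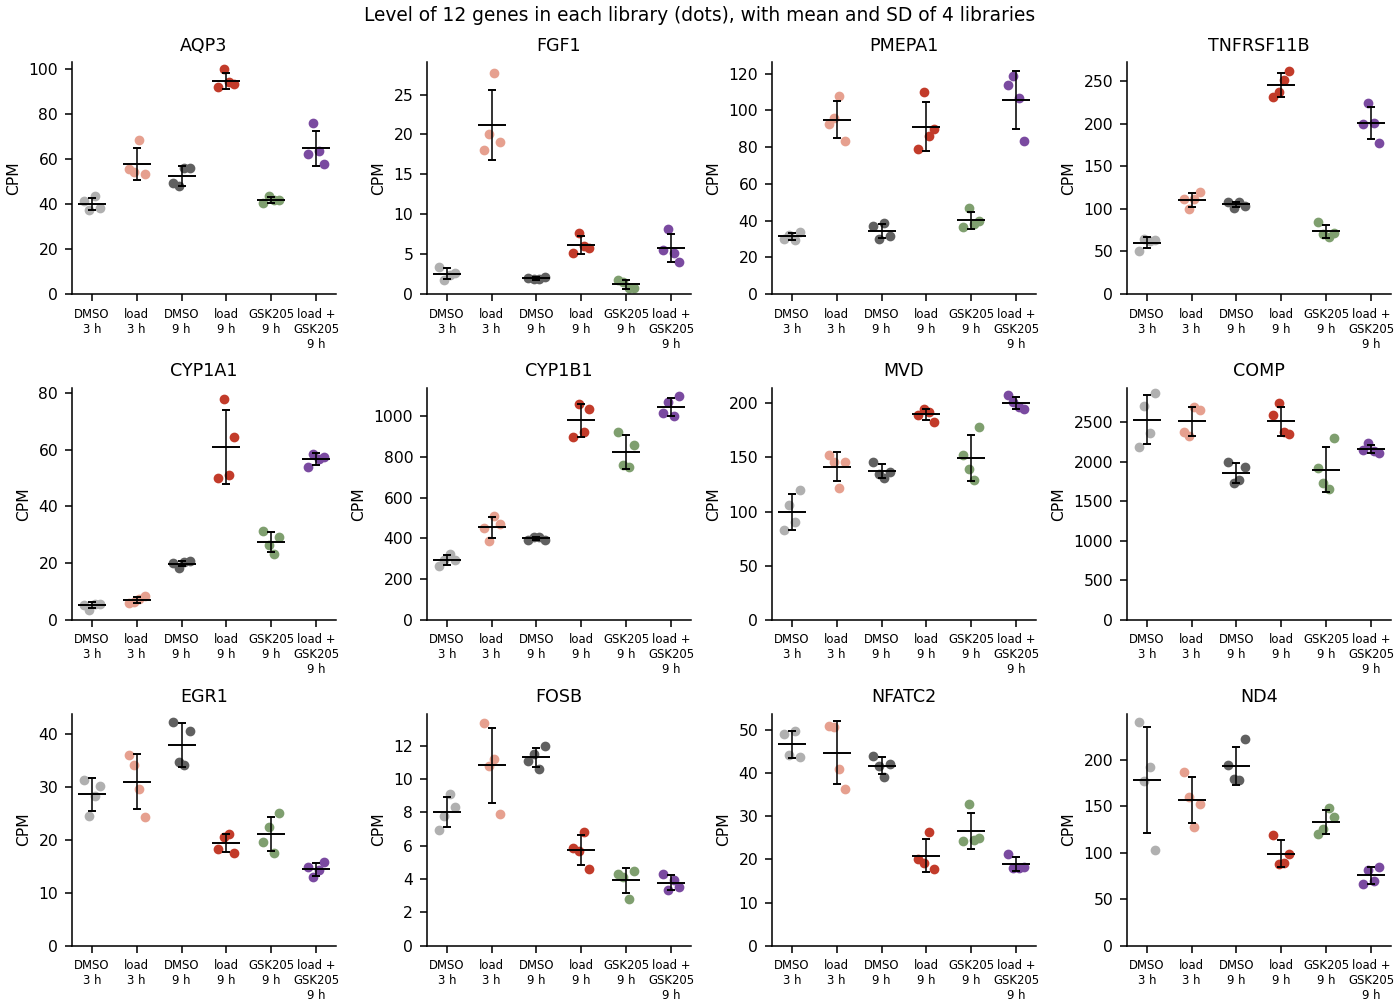
Level of 12 genes in CPM (y axis, starting at 0) in the DMSO and loading libraries at 3 h and 9 h and in the GSK205 and loading with GSK205 libraries at 9 h; each dot is a library, the bar is the mean and the whiskers the SD of 4 libraries. At 9 h the loading libraries lie above DMSO for AQP3, FGF1, PMEPA1, TNFRSF11B, CYP1A1, CYP1B1, MVD and COMP and below it for EGR1, FOSB, NFATC2 and ND4.

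Under the same limits, the 10 largest falls included 3 signal-dependent transcription factors, a potassium channel, several very long genes and a pair of mitochondrial genes. NFATC2, a calcineurin-dependent transcription factor that is dephosphorylated when calcium rises, had 44.1, 41.7, 39.2 and 42.2 CPM in DMSO and 20.1, 19.2, 26.4 and 17.8 CPM after loading. It fell by 1.03 ± 0.09 on the log2 scale (adjusted p = 1.4e-09). EGR1, an immediate early zinc finger factor, had 42.3, 34.7, 34.1 and 40.5 CPM in DMSO and 18.3, 20.5, 21 and 17.5 CPM after loading, and fell by 0.99 ± 0.09 (adjusted p = 1.4e-09). FOSB, a subunit of the AP-1 transcription factor, had 10.6 to 12 CPM in DMSO and 5.86, 5.71, 6.8 and 4.6 CPM, and fell by 1.00 ± 0.09 (adjusted p = 3.2e-09).

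Another 5 of these falls were of genes at low levels. KCNJ13, an inward rectifier potassium channel, fell by 1.21 ± 0.23 (adjusted p = 0.00026) from 2.8 to 3.31 CPM in DMSO to 0.89 to 1.83 CPM. PARD3B, a cell polarity protein, fell by 1.09 ± 0.12 (adjusted p = 1.7e-07), and NOS1AP, an adaptor of neuronal nitric oxide synthase, fell by 1.03 ± 0.15 (adjusted p = 6.3e-06). TRERF1, a transcriptional regulator, fell by 1.00 ± 0.26 (adjusted p = 0.0046), and NHSL1, a regulator of the actin cytoskeleton, fell by 0.99 ± 0.14 (adjusted p = 4e-06). The last pair of the 10 were mitochondrial genes of respiratory complex I, in the electron transport chain. ND4 had 194, 179, 178 and 222 CPM in DMSO and 119, 87.7, 89.2 and 99.1 CPM after loading, and fell by 0.98 ± 0.09 (adjusted p = 2.9e-09). ND6 fell by 0.98 ± 0.11 (adjusted p = 5.9e-08).

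The direction of change went with the length of the gene in the genome. Among 13068 protein-coding genes with a RefSeq position (93.3% of those tested), the median span from start to end was 28.9 kb, but 15.2 kb for genes that rose and 102 kb for genes that fell. Of 1244 genes of up to 5 kb, 25.2% rose and 2.57% fell, with a median log2 fold change of 0.14. Of 947 genes over 200 kb, 1.27% rose and 40.5% fell, with a median of -0.24. The medians between these ends descended in order with span, through 0.12, 0.09, 0.05, 0.00 and -0.07. Each of the 4 loading libraries showed it against the mean of the DMSO libraries. Genes of up to 5 kb lay 0.10 to 0.16 higher and genes over 200 kb 0.15 to 0.21 lower (-0.15 to -0.21 on the log2 scale). The 4 DMSO libraries, set against their own mean, stayed within -0.02 to 0.03. Medians also differed by span in other comparisons, but not all in order. For DMSO at 9 h against 3 h the medians of these shortest and longest genes were -0.09 and 0.06, and for loading 0.11 and -0.13. Against DMSO at 9 h they were -0.19 and 0.01 with IL-1, and 0.01 and -0.12 with GSK101. Between these ends the medians with IL-1 were highest, at 0.07, in genes of 50 to 200 kb. With GSK101 they stayed within -0.04 to 0.01 in genes of up to 200 kb, in no order.

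**Figure D3:**
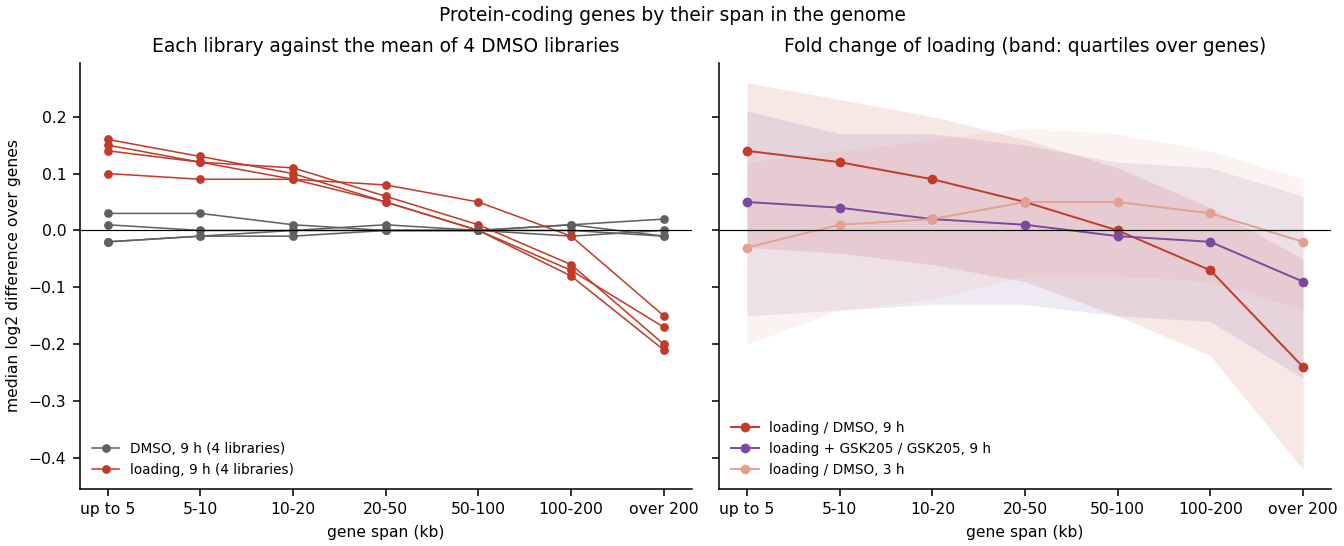
Median log2 difference of protein-coding genes by their span in kb (x axis); on the left each of the 4 loading and 4 DMSO libraries at 9 h against the mean of the DMSO libraries, on the right the fold changes of loading at 9 h, of loading with GSK205 at 9 h and of loading at 3 h, with quartile bands over genes. Loading libraries run from 0.10 to 0.16 in the shortest genes to -0.15 to -0.21 in the longest, and the fold changes run from 0.05 to -0.09 with GSK205 and are -0.03 and -0.02 at the ends at 3 h.

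Several genes named above are long. PARD3B spans 1030 kb, NOS1AP 343 kb, NHSL1 325 kb and TRERF1 222 kb, and genes of like span had medians of -0.29 for the first 3 and -0.14 for TRERF1. Relative to genes of like span the log2 fold change was -0.80 for PARD3B, -0.75 for NOS1AP, -0.70 for NHSL1 and -0.87 for TRERF1. EGR1 and FOSB are short genes (4.47 and 7.75 kb), and relative to like genes they were lower still, at -1.10 and -1.11. For some of the gene lists described next the median span of the members is given. Genes of 2 other classes fell more often than they rose. Of 1675 long non-coding RNAs tested 22 rose (1.31%) and 240 fell (14.3%), with a median of -0.35. Of 516 pseudogenes 11 rose (2.13%) and 141 fell (27.3%), with a median of -0.66. Over all genes tested 12.5% rose and 11.2% fell, so the share of long non-coding RNAs that fell was near that of all genes. In loading with GSK205 against GSK205 the medians ran from 0.05 in the shortest to -0.09 in the longest genes, and at 3 h they were -0.03 and -0.02. What it reflects, in the cells or in the libraries, was not tested.

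Of the 13 protein-coding genes of the mitochondrial genome 11 fell and none rose, with a median log2 fold change of -0.49. Over all genes tested 11.2% fell and 12.5% rose. Every complex I gene of this genome fell: beside ND4 and ND6, ND5 fell by 0.89 (302, 305, 289 and 369 CPM in DMSO against 212, 155, 150 and 175 CPM), ND2 by 0.67, ND4L by 0.54, ND1 by 0.30 and ND3 by 0.26. The ATP synthase genes ATP8 and ATP6, which overlap each other, fell by 0.62 and 0.34, and CYTB, of complex III, fell by 0.49. COX3 fell by 0.14 (adjusted p = 0.044), whereas COX1 and COX2, of complex IV, had log2 fold changes of 0.01 and -0.05 (adjusted p = 0.89 and 0.58). The mitochondrial ribosomal and transfer RNA share was also lower in all 4 loading libraries, as given above, and its part in this result was not tested.

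Gene lists were then read by the roles of their members, each against 12.5% of all tested genes rising and 11.2% falling. In the TGF-beta and activin list, where ligands act through receptor kinases and SMADs, 10 of 34 tested members rose and 4 fell (median 0.04), against 9 and 2 with levels centred on genes of like span. Of 6 ligands 2 rose, led by TGFB1, with 38.7, 31.2, 32 and 31 CPM in DMSO and 49, 52.3, 57.6 and 50.8 CPM after loading, a rise of 0.64 ± 0.07 (adjusted p = 2e-08). Among targets, TGFBI, a matrix protein that TGF-beta induces, rose by 0.73 ± 0.07 (adjusted p = 1.5e-08), from 35.9 to 41.7 CPM to 56.5 to 76.1 CPM. Signal transducers and feedback were mixed. SMAD3, a receptor-activated SMAD, fell by 0.46 ± 0.06 (adjusted p = 4e-07), from 111 to 123 CPM to 84.1 to 91 CPM. The inhibitors SMAD7 (-0.32 ± 0.10, adjusted p = 0.016) and SMURF1 (-0.24 ± 0.08, adjusted p = 0.041) fell while PMEPA1 rose. SMAD7 and SMURF1 overlapped between the groups, and their adjusted p reached 0.074 and 0.22 under other settings.

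In the BMP and GDF list 7 of 27 rose and 5 fell (median 0.00), against 5 and 6 with levels centred on genes of like span. The ligands BMP7 (0.67 ± 0.14, adjusted p = 0.00056, 2.36 to 4.09 CPM in DMSO and 4.74 to 6.55 CPM after loading) and GDF5, a joint-forming factor (0.42 ± 0.07, adjusted p = 3.2e-05, 57.9 to 72.7 and 80.8 to 95.2 CPM), rose without overlap. Of 6 antagonists 4 rose and none fell, among them NOG, noggin, at 0.67 ± 0.23 (adjusted p = 0.03), but its adjusted p reached 0.12 under other settings. The receptor BMPR2 fell by 0.35 ± 0.05 (adjusted p = 1.1e-05) and the target ID3 by 0.33 ± 0.06 (adjusted p = 0.00011).

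In the FGF and EGF list, growth factors, their receptor kinases and the inhibitors that ERK signalling induces, 6 of 40 rose and 9 fell (median -0.07). FGF1 was the largest rise among the 17 ligands, of which 2 rose and 4 fell. Of 11 genes of ERK feedback 1 rose and 4 fell: SPRED2 fell by 0.70 ± 0.09 (adjusted p = 2.2e-06) and SPRY4 by 0.68 ± 0.15 (adjusted p = 0.00081). IER3, an early response gene, was the one that rose, at 0.40 ± 0.06 (adjusted p = 1.2e-05), with 61.7 to 79.8 CPM in DMSO and 88.6 to 92.7 CPM after loading.

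The aryl hydrocarbon receptor list, of a ligand-activated factor whose target genes clear aromatic compounds, had 7 of 12 members higher and none lower (median 0.37). Of 9 genes in the group of repressor and targets 5 rose and none fell (median 0.66). Beside CYP1A1 and CYP1B1 they included AHRR, the receptor's repressor, which rose by 0.79 ± 0.19 (adjusted p = 0.0029) from 1.26 to 1.84 CPM to 2.35 to 3.12 CPM, and NQO1, a quinone reductase, which rose by 0.45 ± 0.06 (adjusted p = 6.3e-07) from 81.9 to 91.7 CPM to 111 to 128 CPM. Neither gene overlapped between the groups.

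Immediate early genes, which signals switch on within minutes, were lower. Of 25 tested members 2 rose and 14 fell (median -0.29), including 5 of 8 AP-1 genes. After EGR1 and FOSB the largest fall was of NR4A3, an orphan nuclear receptor, at -0.78 ± 0.19 (adjusted p = 0.0026), from 1.49 to 2.7 CPM in DMSO to 1.1 to 1.47 CPM. Of the 2 rises, KLF6 rose by 0.12 ± 0.04 (adjusted p = 0.041), but relative to genes of like span its log2 fold change was 0.04 (adjusted p = 0.58). These genes are mostly short, with a median span of 5.6 kb. In the list of calcium, NFAT and CREB genes 3 of 16 rose and 7 fell (median -0.10). With NFATC2, the nuclear receptor NR4A1 fell by 0.68 ± 0.15 (adjusted p = 0.0011) and CREB5, a CREB-family factor, fell by 0.67 ± 0.07 (adjusted p = 1.1e-08). These members were long, with a median span of 99.5 kb, and with levels centred on genes of like span 5 rose and 5 fell.

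Of 28 channels and calcium transporters 4 rose and 8 fell (median -0.04), against 4 and 5 of 27 with levels centred on genes of like span. KCNN4, a calcium-activated potassium channel, rose by 1.24 ± 0.19 (adjusted p = 1.4e-05) at low levels, from 0.624 to 1.31 CPM to 2.04 to 2.67 CPM. KCNK5, a background potassium channel, rose by 0.39 ± 0.06 (adjusted p = 8.6e-06), and ORAI1, the pore of store-operated calcium entry, by 0.36 ± 0.06 (adjusted p = 2.8e-05). KCNMA1, the large-conductance potassium channel, fell by 0.65 ± 0.05 (adjusted p = 1.5e-10), from 87.1 to 90 CPM to 53.7 to 62 CPM. The inositol trisphosphate receptors ITPR2 and ITPR1, which release calcium from the endoplasmic reticulum, fell by 0.40 ± 0.06 (adjusted p = 3.2e-06) and 0.37 ± 0.09 (adjusted p = 0.0025). KCNMA1, ITPR2 and ITPR1 span 761, 530 and 331 kb, and relative to genes of like span their log2 fold changes were -0.36, -0.12 and -0.08, the last not passing the test in a fit centred on such genes (-0.12, adjusted p = 0.34).

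Circadian clock genes were lower or not called. Of 20 members none rose and 10 fell (median -0.22), 6 of them among 10 repressors. PER2, a repressor of the clock's activators, had 7.38, 8.06, 6.64 and 7.7 CPM in DMSO and 5.09, 5.31, 5.31 and 3.59 CPM after loading, and fell by 0.64 ± 0.16 (adjusted p = 0.0026). NR1D1, which represses the clock activator BMAL1, fell by 0.67 ± 0.19 (adjusted p = 0.0079), from 6.92 to 8.53 CPM to 4.64 to 5.81 CPM. RORA, an activator, fell by 0.37 ± 0.06 (adjusted p = 3.4e-05) but spans 764 kb, and with levels centred on genes of like span its log2 fold change was -0.13 (adjusted p = 0.093).

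Cartilage matrix genes moved both ways, with 13 of 49 higher and 9 lower (median 0.03). COMP, an oligomeric protein that binds collagens, had 2000, 1736, 1764 and 1937 CPM in DMSO and 2592, 2739, 2378 and 2347 CPM after loading, and rose by 0.42 ± 0.07 (adjusted p = 6e-05). CYTL1, a secreted protein of cartilage, rose by 0.45 ± 0.08 (adjusted p = 8.5e-05), from 29.6 to 35.6 CPM to 41.1 to 50.5 CPM. CHST11, a chondroitin sulfotransferase, fell by 0.59 ± 0.05 (adjusted p = 6.6e-10), from 253 to 266 CPM to 167 to 186 CPM, and spans 280 kb. COL27A1, a fibrillar collagen gene of cartilage, fell by 0.48 ± 0.06 (adjusted p = 7.9e-07), and BGN, biglycan, fell by 0.41 ± 0.05 (adjusted p = 1.8e-06). Relative to genes of like span their log2 fold changes were -0.30, -0.41 and -0.52. Of 7 fibroblast-type collagens, with a median span of 131 kb, none was called (5740 genes of all tested had an unadjusted p under 0.05).

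Transcription factors of chondrocytes were lower, at 9 of 14 with none higher (median -0.19). After NFATC2 the largest falls were of the nuclear factor I genes NFIA (-0.76 ± 0.10, adjusted p = 1.6e-06, 19 to 23.2 CPM in DMSO and 12 to 14.4 CPM after loading) and NFIB (-0.59 ± 0.07, adjusted p = 1.3e-07). The members had a median span of 149 kb. With levels centred on genes of like span 5 of 14 fell, and the log2 fold changes of NFIA and NFIB relative to such genes were -0.48 and -0.45. Of 25 hedgehog and hypertrophy genes, which govern cartilage growth and its turn to bone, none rose and 9 fell (median -0.24). With levels centred on genes of like span none rose and 6 fell (median -0.13). RUNX2, a factor of hypertrophy and bone, fell by 0.77 ± 0.14 (adjusted p = 8.6e-05), from 10.4 to 12.1 CPM to 6.1 to 7 CPM. MEF2D, another transcription factor, fell by 0.65 ± 0.10 (adjusted p = 2.6e-05), and PTCH1, the hedgehog receptor and target, fell by 0.54 ± 0.09 (adjusted p = 6.1e-05).

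Matrix-degrading enzymes and their inhibitors were more often higher, at 11 of 30 against 2 lower (median 0.14). MMP13, a collagenase, rose by 0.46 ± 0.09 (adjusted p = 0.00022), from 9.24 to 11.4 CPM to 12.1 to 16 CPM. MMP12, an elastase, rose by 0.58 ± 0.18 (adjusted p = 0.015, reaching 0.09 under other settings), and PLAT, a plasminogen activator, rose by 0.82 ± 0.25 (adjusted p = 0.016, reaching 0.11 under other settings) with overlap between the groups. Of 7 genes of the plasminogen system and cathepsins 5 rose and none fell. The inhibitor TIMP3 fell by 0.20 ± 0.04 (adjusted p = 0.00088) and the membrane collagenase MMP14 by 0.17 ± 0.05 (adjusted p = 0.018, and 0.1 without loading replicate 1).

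Inflammatory genes were also more often higher, at 18 of 54 against 5 lower (median 0.11), with TNFRSF11B and ARG1 the leading rises. With levels centred on genes of like span 13 of 53 rose and 7 fell (median 0.04). Of 13 cytokines and chemokines 3 rose and 2 fell, and of 27 receptors and genes of NF-kB feedback 10 rose and 2 fell. CSF2, a colony-stimulating factor picked after its values were seen, passed the test with 0 counts in every DMSO library and at most 0.127 CPM after loading, so no fold change is given. SOCS1, a feedback inhibitor of cytokine receptors, fell by 0.61 ± 0.12 (adjusted p = 0.00039), from 3.48 to 4.37 CPM to 2.32 to 3.37 CPM. IL33, an alarmin, fell, with a log2 fold change of -1.50 ± 0.43 (adjusted p = 0.01), with all 8 libraries under 1 CPM, and its adjusted p was 0.11 without DMSO replicate 2.

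Beside the 23.7% of all tested genes, 20.7% of the WNT genes and 25% of the Notch genes were called, against 60% of the YAP-TAZ genes, 33.3% of the SRF and actin genes and 30% of the integrin and adhesion genes. Of 29 WNT genes 4 rose and 2 fell: the WNT antagonist SFRP1 rose by 0.51 ± 0.05 (adjusted p = 6.2e-09), from 36.9 to 40.4 CPM to 54.2 to 59.1 CPM. TCF7L2, the factor that binds beta-catenin, fell by 0.84 ± 0.10 (adjusted p = 1.9e-07), from 12.5 to 13.9 CPM to 6.59 to 7.78 CPM. Of 12 Notch genes 1 rose and 2 fell, and of 20 YAP-TAZ genes 6 rose and 6 fell (2 and 5 with levels centred on genes of like span). Of 33 SRF and actin genes 7 rose and 4 fell, with TAGLN2, an actin-binding protein, higher by 0.53 ± 0.06 (adjusted p = 1.7e-07) and the focal adhesion protein ZYX lower by 0.43 ± 0.09 (adjusted p = 0.00075). Of 20 integrin and adhesion genes, with a median span of 83.3 kb, 2 rose and 4 fell. The count for this list moved with the setting, to 6 and 5 with DESeq2, 4 and 4 of 19 with only the loading and DMSO groups fitted, and 3 and 2 with levels centred on genes of like span.

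Genes of cholesterol and fatty acid synthesis were higher, at 22 of 42 against 2 lower (median 0.20). With levels centred on genes of like span 17 rose and 3 fell (median 0.15). Of 21 enzymes of the cholesterol pathway 15 rose and none fell (median 0.25). MVD, with 131 to 146 CPM in DMSO and 183 to 195 CPM after loading, rose by 0.45 ± 0.06 (adjusted p = 1.9e-06) and MSMO1 by 0.38 ± 0.07 (adjusted p = 0.00016), both enzymes of the same pathway and both without overlap. SREBF2, the factor that induces the pathway, fell by 0.40 ± 0.06 (adjusted p = 3.9e-06), from 253 to 269 CPM to 193 to 209 CPM.

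The NRF2 list, of antioxidant and NADPH-producing enzymes, had 20 of 26 members higher and 3 lower (median 0.27). With MT1A and NQO1, PGD, an enzyme of the pentose phosphate pathway, rose by 0.44 ± 0.05 (adjusted p = 1.7e-07), from 229 to 246 CPM to 300 to 346 CPM. Those that fell were SOD3, the extracellular superoxide dismutase (-0.50 ± 0.15, adjusted p = 0.018, reaching 0.081 with a library left out), SLC7A11, the cystine transporter (-0.30 ± 0.07, adjusted p = 0.0018), and HMOX1, heme oxygenase 1 (-0.23 ± 0.06, adjusted p = 0.0072). These genes had a median span of 9.92 kb, and with levels centred on genes of like span 16 rose and 3 fell (median 0.19).

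Of 18 heat shock genes 11 rose and 1 fell (median 0.15), and 7 rose and 1 fell with levels centred on genes of like span. HSPA8, a constitutive chaperone, rose by 0.43 ± 0.05 (adjusted p = 1.5e-07), from 873 to 935 CPM to 1139 to 1278 CPM, and FKBP4, a partner of HSP90, by 0.35 ± 0.05 (adjusted p = 1.3e-06), whereas the co-chaperone BAG3 fell by 0.39 ± 0.07 (adjusted p = 9.9e-05). Of 35 genes of the unfolded protein and integrated stress responses 8 rose and 6 fell, against 5 and 9 with levels centred on genes of like span. All 8 rises were among 19 chaperones and sensors of the endoplasmic reticulum, such as HSPA5 (0.27 ± 0.04, adjusted p = 2.6e-05), and of 16 ATF4 targets none rose and 3 fell, such as SESN2 (-0.40 ± 0.06, adjusted p = 1.4e-05). CREB3L2, a membrane-bound factor of secretory cells, fell by 0.47 ± 0.06 (adjusted p = 7.8e-07).

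Of 15 genes of osmoregulation 3 rose and 7 fell. AQP3, a water and glycerol channel, had 49.3, 47.9, 56.1 and 56.2 CPM in DMSO and 91.9, 100, 94.2 and 93.3 CPM after loading, and rose by 0.84 ± 0.07 (adjusted p = 1.5e-10). AKR1B1, which makes the osmolyte sorbitol, rose by 0.51 ± 0.05 (adjusted p = 5.7e-09), from 50 to 56.3 CPM to 74.2 to 79.9 CPM. NFAT5, the factor that answers hypertonicity, fell by 0.56 ± 0.07 (adjusted p = 3.5e-07), from 179 to 186 CPM to 118 to 132 CPM.

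Of 30 cell cycle genes 7 rose and 1 fell. The replication helicase genes MCM3 (0.49 ± 0.07, adjusted p = 7.3e-06) and MCM4 (0.36 ± 0.09, adjusted p = 0.0041) and the cyclin gene CCND1 (0.40 ± 0.09, adjusted p = 0.00096) rose, and the cyclin gene CCND2 fell by 0.36 ± 0.05 (adjusted p = 1.4e-05). Of 30 genes of hypoxia and glycolysis 4 rose and 10 fell (2 and 9 with levels centred on genes of like span), among the latter EPAS1, the hypoxia-inducible factor 2 alpha gene (-0.50 ± 0.05, adjusted p = 2e-08, 88.5 to 97 CPM in DMSO and 62.9 to 68.5 CPM after loading), HK2, a hexokinase (-0.46 ± 0.06, adjusted p = 1.9e-06), and SLC16A3, a lactate exporter (-0.45 ± 0.07, adjusted p = 4.3e-05). Of 18 p53 and growth arrest genes 4 rose and 2 fell, but 0 and 5 with levels centred on genes of like span, and their median span was 7.5 kb. Of 23 interferon-stimulated genes 1 rose and none fell, against 2 rises with DESeq2 and 2 falls and no rise with a replicate block. Of 23 genes of the primary cilium 1 rose and 4 fell, and 1 and 2 with levels centred on genes of like span.

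**Figure D4:**
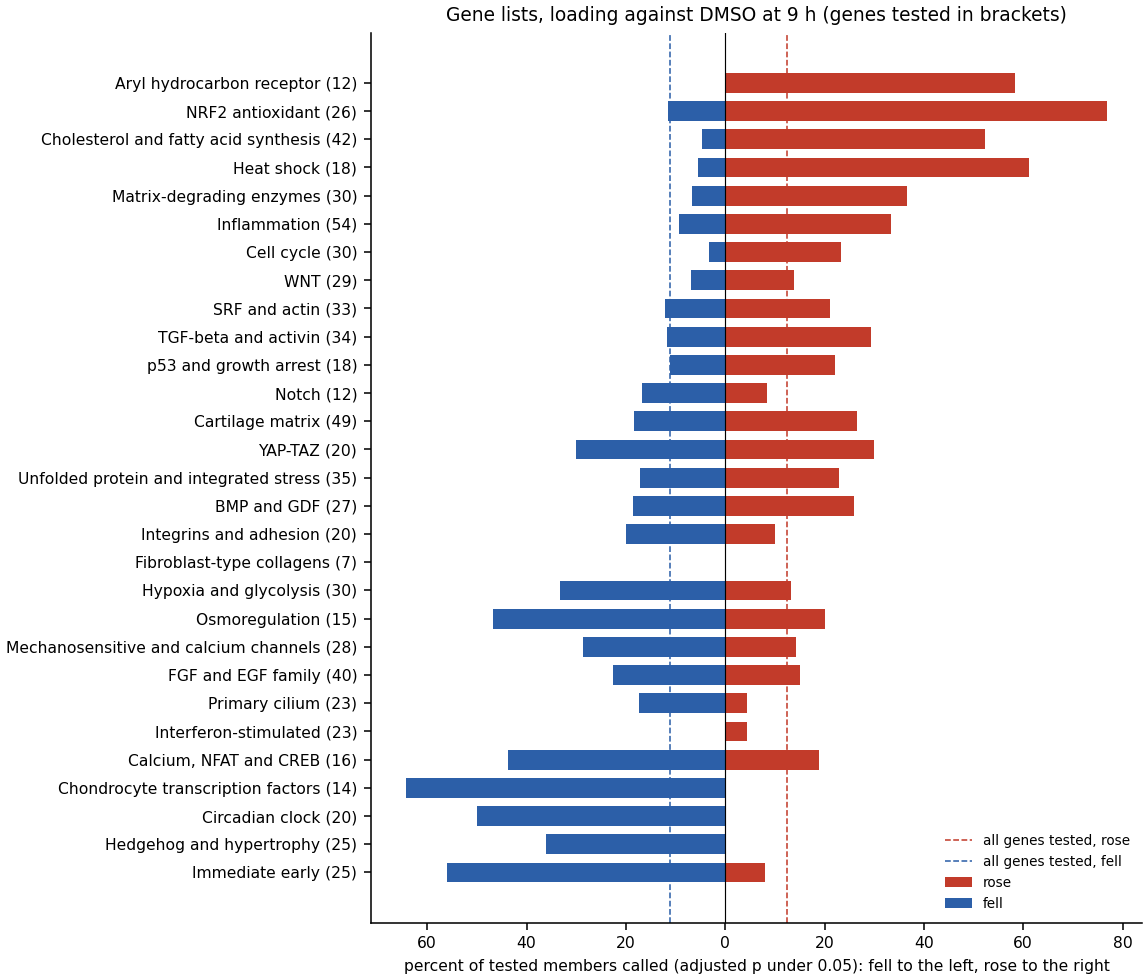
Percent of the tested members of each of 29 gene lists that rose (right) or fell (left) after loading at 9 h, with lists ordered by median log2 fold change and the number tested in brackets; dashed lines give the percent of all tested genes, 12.5 higher and 11.2 lower. NRF2, heat shock, aryl hydrocarbon receptor and cholesterol genes lie mostly to the right, and immediate early, clock, chondrocyte factor and hedgehog genes to the left.

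The effect at 9 h was then set against that at the end of loading. At 3 h loading called 1683 of 16562 genes (10.2%), 1302 higher (7.86%) and 381 lower (2.3%), in libraries that share none with the 9 h comparison. Of the genes tested at both times 567 were called in both, 473 of them in the same direction (12.1% of the calls at 9 h and 28.2% of those at 3 h) and 94 in opposite ones. The test of the effect at 9 h minus that at 3 h called 1761 of 17447 genes (10.1%), 871 higher at 9 h (4.99%) and 890 lower (5.1%). Of these 124 differed by at least 2-fold (0.711%), 34 higher (0.195%) and 90 lower (0.516%).

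Several signalling genes that rose at 3 h were not called, or were lower, at 9 h. JUNB, an AP-1 gene, had 46.7 to 54.2 CPM in DMSO and 163, 226, 269 and 180 CPM after loading at 3 h, but 42.3 to 53.9 CPM and 39.1 to 50 CPM at 9 h. The difference between the effects was -2.17 ± 0.14 (adjusted p = 1.6e-16). The difference was also negative for the cytokines IL11 (2.67 ± 0.18 at 3 h and 0.14 ± 0.12 at 9 h, difference -2.51 ± 0.23, adjusted p = 2e-11) and LIF (2.09 and 0.20, difference -1.86, adjusted p = 8.4e-09) and for HBEGF, an EGF-type ligand (2.11 and 0.00, difference -2.07, adjusted p = 5.3e-08). ATF3, a stress-induced factor, went from 1.55 ± 0.06 at 3 h to -0.38 ± 0.06 at 9 h (difference -1.89 ± 0.08, adjusted p = 2.8e-23). Its 9 h libraries held 63 to 71.1 CPM in DMSO and 49.8 to 56.9 CPM after loading. Of the 25 immediate early genes 17 rose and 1 fell at 3 h, and 2 rose and 14 fell at 9 h. For 20 of them the effect was lower at 9 h by the test of the difference, and for none higher, beside 5.1% lower and 4.99% higher over all genes.

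SMAD7 changed direction, from 1.21 ± 0.11 at 3 h to -0.32 ± 0.10 (difference -1.50, adjusted p = 1e-10), while its fellow TGF-beta feedback gene PMEPA1 had 1.61 ± 0.08 and 1.40 ± 0.10 (difference -0.18, adjusted p = 0.46). SMAD3 differed by -0.46 (adjusted p = 8.4e-05), from 0.03 at 3 h. FGF1 rose at both times and by less at 9 h, at 3.08 ± 0.21 and 1.62 ± 0.19 (difference -1.43 ± 0.30, adjusted p = 0.0012), as did IER3 at 1.48 and 0.40 (difference -1.05, adjusted p = 3.5e-11).

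Other genes had a larger effect at 9 h. CYP1A1 had a log2 fold change of 0.46 ± 0.18 at 3 h (adjusted p = 0.10), when its level was 3.5 to 5.74 CPM in DMSO and 6.04 to 8.28 CPM after loading, and of 1.60 at 9 h (difference 1.19 ± 0.20, adjusted p = 6.4e-05). CYP1B1 went from 0.64 to 1.28 (difference 0.66 ± 0.10, adjusted p = 1.9e-05). TNFRSF11B went from 0.89 ± 0.07 to 1.21 (difference 0.34 ± 0.09, adjusted p = 0.012) and TGFBI from 0.25 to 0.73 (difference 0.51, adjusted p = 0.015). The falls of EGR1 (difference -1.10, adjusted p = 2.2e-05), FOSB (-1.43, adjusted p = 9.3e-08) and NFATC2 (-0.95, adjusted p = 2.7e-06) came with log2 fold changes of 0.14, 0.45 and -0.05 at 3 h. Of 26 NRF2 genes 7 rose at 3 h against 20 at 9 h, and for 12 the effect was higher at 9 h by the test of the difference and for 1 lower. Over all genes that test called 4.99% higher and 5.1% lower.

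Of the largest positive differences, some rested on loading replicate 3. ZNF45, a zinc finger gene, had 30.7, 33, 216 and 18.2 CPM after loading at 9 h against 14.2 to 20.5 CPM in DMSO (difference 2.10, adjusted p = 0.013), and DHRSX, an oxidoreductase gene, had 7.33, 6.04, 34.8 and 5.73 CPM against 3.38 to 6.43 CPM (difference 1.84, adjusted p = 0.024). Without that library their log2 fold changes at 9 h were 0.61 (adjusted p = 0.11) and 0.40 (adjusted p = 0.45). SMPDL3B (difference 1.38, adjusted p = 0.015) had 4.98 to 6.68 CPM after loading and UFSP1, a protease gene (difference 1.21, adjusted p = 0.0026), 2.32 to 2.74 CPM, with no library apart.

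**Figure D5:**
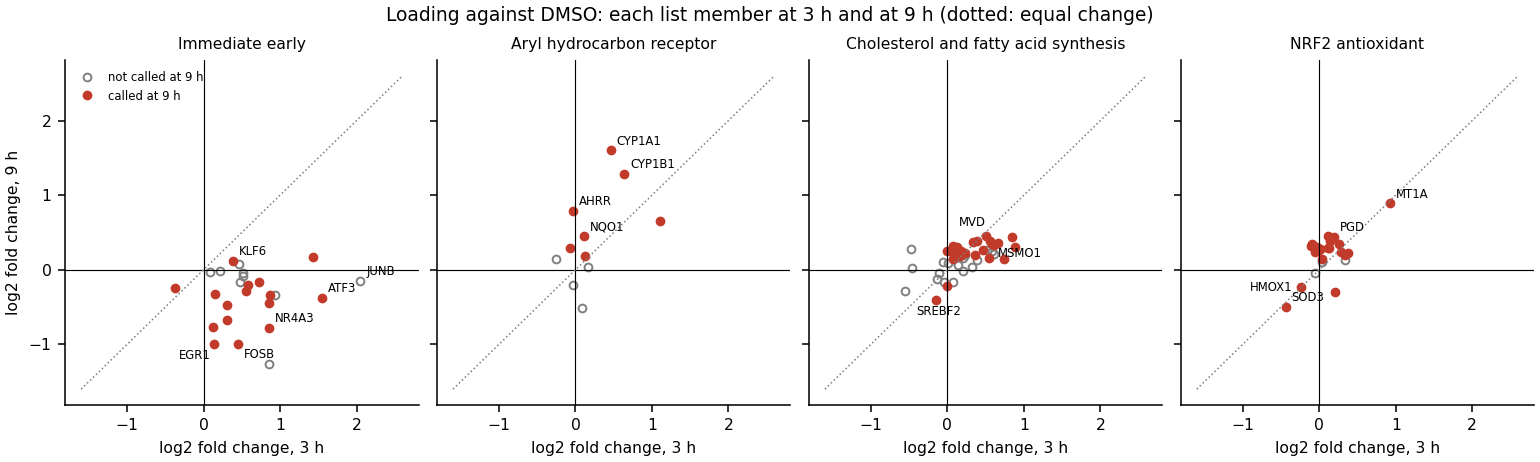
Log2 fold change of loading against DMSO at 3 h (x axis) and at 9 h (y axis) for each member of 4 gene lists; filled points passed an adjusted p of 0.05 at 9 h, and the dotted line marks equal change. Immediate early genes lie mostly right of 0 and below 0, CYP1A1 and CYP1B1 lie above the line, and 20 of the 26 NRF2 genes are called above 0 at 9 h.

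The loading effect was also read in the presence of GSK205, the TRPV4 antagonist. Whether a difference with GSK205 comes from TRPV4 or from another action of the compound was not tested. Loading with GSK205 against GSK205 called 2981 of 16540 genes (18%), 1459 higher (8.82%) and 1522 lower (9.2%), in libraries not shared with the main comparison. Changes of at least 2-fold were called for 97 genes (0.586%), 50 higher (0.302%) and 47 lower (0.284%). Both comparisons called 1487 genes, 1418 of them in the same direction, 772 higher and 646 lower. These 1418 are 36.1% of the calls without GSK205 and 47.6% of those with it. PMEPA1 (1.39 ± 0.10), TNFRSF11B (1.44 ± 0.06) and FGF1 (2.28 ± 0.21) rose with GSK205 too. For these 3 genes the difference between the effects did not pass the test, at -0.01 ± 0.13, 0.23 ± 0.09 and 0.66 ± 0.29 (adjusted p = 0.98, 0.12 and 0.23).

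The test of the effect with GSK205 minus that without called 767 genes (4.64%), 368 higher with GSK205 (2.22%) and 399 lower (2.41%), of which 99 differed by at least 2-fold (0.599%), 83 higher (0.502%) and 16 lower (0.0967%). With levels centred on genes of like span, 519 of 13068 genes were called, against 644 of the same genes without centring. Centring kept 64.4% of the higher and 65% of the lower effects. Levels in GSK205 alone lay away from DMSO for several of the genes called, so the levels of all 4 groups are given. CYP1B1 had 923, 762, 750 and 861 CPM in GSK205 and 1017, 1071, 1001 and 1098 CPM in loading with GSK205, against 392 to 408 CPM in DMSO. After loading alone it had 897 to 1062 CPM, and the difference between the effects was -0.94 ± 0.09 (adjusted p = 1.8e-07). CYP1A1 (difference -0.57 ± 0.15, adjusted p = 0.025) had 23.2 to 31.4 CPM in GSK205 and 54 to 58.6 CPM with loading. AHRR had 1.76 to 3.04 CPM and 1.85 to 2.44 CPM (difference -0.98, adjusted p = 0.031). MT1A had 25, 26.7, 26.1 and 28 CPM in GSK205 and 14.4, 16.3, 19.9 and 10.6 CPM with loading, so that it fell by 0.80 with GSK205 (adjusted p = 1.3e-05) where it rose without (difference -1.69 ± 0.19, adjusted p = 2.6e-06).

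IER3 likewise rose without the antagonist and fell with it, with 122 CPM on average in GSK205 and 90.7 CPM in loading with GSK205, against 68.5 and 91.3 CPM without the antagonist (difference -0.83 ± 0.08, adjusted p = 4.4e-07). So did KLF6, at 142 and 119 CPM against 96.6 to 104 CPM in DMSO and 111 CPM after loading (difference -0.38, adjusted p = 0.00018), and STX11, a vesicle fusion protein, at 6.29 and 4.29 CPM against 2.95 and 4.18 CPM (difference -1.07, adjusted p = 0.0017). SDR42E2 and NFAM1 had the largest negative differences (-4.20 ± 1.03, adjusted p = 0.014, and -2.92 ± 0.80, adjusted p = 0.029) but scattered within groups: SDR42E2 had 41.6, 28, 11.5 and 8.3 CPM in DMSO, 52.7, 81.7, 107 and 61.3 CPM after loading, and 48.4, 66.5, 3.89 and 52.7 CPM in GSK205.

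In the other direction, several genes that fell after loading alone had a less negative or a positive effect with GSK205, from means in GSK205 alone that lay below those in DMSO. FOSB had 11.3 CPM on average in DMSO and 5.74 CPM after loading, but 3.92 and 3.77 CPM in GSK205 without and with loading (difference 0.94 ± 0.15, adjusted p = 0.00024). EGR1 had 37.9 and 19.3 CPM against 21.1 and 14.4 CPM (difference 0.43, adjusted p = 0.045), and NFATC2 41.8 and 20.9 CPM against 26.7 and 18.9 CPM (difference 0.53, adjusted p = 0.014). PTCH1 had 22.9 and 16.0 CPM against 10.8 and 13.4 CPM (difference 0.84 ± 0.13, adjusted p = 0.00022). COL19A1, a collagen gene, had 19.3 and 12.0 CPM against 8.43 to 12.7 CPM in GSK205 and a mean of 13.9 CPM with loading (difference 1.02, adjusted p = 9.4e-05), and FAT4, a giant cadherin gene, 12.8 and 9.72 CPM against 7.34 and 11.3 CPM (difference 1.02, adjusted p = 1.6e-05). With GSK205 these last 3 genes rose, by 0.31, 0.31 and 0.61 (adjusted p = 0.026, 0.042 and 2.5e-05).

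The same order of means held for CREB3L2 (difference 0.49, adjusted p = 0.00048), ITPR2 (0.48, adjusted p = 0.00035), KCNMA1 (0.38, adjusted p = 0.0012) and MED12L, a Mediator subunit gene (0.99, adjusted p = 0.0035). ITPR2 and KCNMA1 are very long genes, as given above, and the part of span in their differences was not tested. LRAT, a retinol acyltransferase, differed by 1.44 (adjusted p = 0.0027) and UHRF1, a factor of DNA methylation upkeep, by 1.01 (adjusted p = 0.029). Neither LRAT nor UHRF1 was called in loading without GSK205 (adjusted p = 0.058 and 0.44). Of the 14 chondrocyte factors 6 had a higher effect with GSK205 and none a lower one, and of the 54 inflammatory genes none had a higher effect and 12 a lower one. Over all genes tested the effect was higher with GSK205 for 2.22% and lower for 2.41%. The chondrocyte factors had a median span of 149 kb, whose part in their count was not tested. Of the 42 genes of cholesterol and fatty acid synthesis 29 rose and 1 fell with GSK205, against 22 and 2 without it. Over all genes tested 8.82% rose and 9.2% fell with GSK205, and 12.5% and 11.2% without it.

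For the agonist and the cytokine only values are given, since their comparisons share the DMSO libraries with loading. FGF1 averaged 32.4 CPM with GSK101 and 1.84 CPM with IL-1, against 6.14 CPM after loading and 1.98 CPM in DMSO, and PMEPA1 110 and 15.9 CPM against 91.3 and 34.3 CPM. The means of both genes lay above DMSO with the TRPV4 agonist. With IL-1 the mean of PMEPA1 lay below DMSO, and that of FGF1 lay within the range of the DMSO libraries given above. TNFRSF11B averaged 709 CPM with GSK101 and 280 CPM with IL-1, against 245 CPM after loading. The P450 genes stood in another order: CYP1A1 averaged 3.21 CPM with GSK101 and 4.3 CPM with IL-1, under the 19.9 CPM of DMSO, and CYP1B1 193 and 876 CPM against 400 CPM in DMSO and 981 CPM after loading. The means of 3 genes that fell after loading lay above DMSO with GSK101: FOSB averaged 248 CPM, EGR1 106 CPM and NFATC2 378 CPM. With IL-1 they averaged 14.8, 169 and 19.4 CPM.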

How the data were processed

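RNA of agarose constructs was sequenced, and the authors deposited 1 table of read counts per gene for 120 libraries. Per the submitters' processing notes, reads passed through Trim Galore, STAR and HTSeq on Sscrofa11.1, with versions not given in the sources used here. Per the labels' protocols, ribosomal RNA was depleted and cDNA was primed with random hexamers, whereas the molecule label reads polyA RNA. The strand setting of the counting is not given, so reads of overlapping or antisense genes cannot be told apart. Even numbers made up 68.6 to 73.3% of the deposited counts from 1 to 20 in the 8 libraries, whose cause was not tested. The table has 32388 lines and 31907 identifiers (481 lines repeat one). Symbols came from the table (16681), a gene-name table (822) or RefSeq (762). Positions and spans are those of RefSeq on Sscrofa11.1.

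Counts of the 24 libraries of the TRPV4 experiment at each time were fitted together (48 for the difference between times), with group as the only term: edgeR 4.0.16 in R 4.3.3, TMM scaling, filterByExpr with a minimum count of 10, and the quasi-likelihood F test with Benjamini-Hochberg adjustment over all genes tested. Rose and fell mean an adjusted p under 0.05. Log2 fold changes carry their SE, and CPM were scaled by TMM over all 48 libraries. Library shares and marker sums were compared by exact two-sided permutation tests. Scripts were tested on simulated data. DESeq2 1.42.0, RLE scaling, no filter, a replicate block, fewer groups, removal of small, ribosomal and mitochondrial RNA, and each library left out were alternatives.

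Named genes were the 12 largest rises and 10 largest falls among called genes with a symbol, a mean of at least 2 CPM and no overlap between loading and DMSO libraries, small, ribosomal and transfer RNAs and histones left out, up to 3 rises and 3 falls of each of 29 gene lists, 5 each way for the 2 differences (overlap allowed), and a few fixed genes. Of 795 list genes 744 were tested and 21 had no line. Members and lists were chosen with earlier results of these data known. The centring on genes of like span was added after seeing the data: in protein-coding genes, each library's median log2 deviation within 20 bins of span entered the fit as an offset. The 72 libraries of the PIEZO1 experiment were not analysed here, no sequence is printed, and some genes that the rule names are not reported here.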

Additional observations from a re-analysis of the deposited data

Results flagged for a closer look

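In 13 of 228 sets of 4 libraries (5.7%) 1 library stood apart from the other 3 by more than Dixon's 95% critical value, which chance gives in about 1 set in 20. Loading replicate 3 was high for AMPH (14.4 CPM), ZNF45 (216 CPM) and DHRSX (34.8 CPM). Loading replicate 4 was low for PER2 (3.59 CPM) and high for MSMO1 (202 CPM) and BAG3 (27.8 CPM). Loading replicate 1 was low for MMP14 (432 CPM) and TCF7L2 (6.59 CPM), and loading replicate 2 was high for SFRP1 (59.1 CPM). In DMSO, replicate 1 was low for AMPH (0.177 CPM) and high for TGFB1 (38.7 CPM), and replicate 4 was low for NHSL1 (3.12 CPM) and SMAD7 (6.83 CPM).

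The loading effect at 9 h differed from that at 3 h, by the test of the difference itself, for 1761 genes. Among the named genes the log2 difference (9 h minus 3 h) was positive for ZNF45 (2.10), DHRSX (1.84), SMPDL3B (1.38), UFSP1 (1.21), CYP1A1 (1.19), CYP1B1 (0.66), TGFBI (0.51) and TNFRSF11B (0.34). It was negative for IL11 (-2.51), JUNB (-2.17), HBEGF (-2.07), ATF3 (-1.89), LIF (-1.86), SMAD7 (-1.50), FGF1 (-1.43), FOSB (-1.43), EGR1 (-1.10), IER3 (-1.05), NFATC2 (-0.95) and SMAD3 (-0.46).

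The effect with GSK205 differed from that without for 767 genes. The log2 difference (with GSK205 minus without) was negative for SDR42E2 (-4.20), NFAM1 (-2.92), MT1A (-1.69), STX11 (-1.07), AHRR (-0.98), CYP1B1 (-0.94), IER3 (-0.83), CYP1A1 (-0.57) and KLF6 (-0.38). It was positive for LRAT (1.44), COL19A1 (1.02), FAT4 (1.02), UHRF1 (1.01), MED12L (0.99), FOSB (0.94), PTCH1 (0.84), NFATC2 (0.53), CREB3L2 (0.49), ITPR2 (0.48), EGR1 (0.43) and KCNMA1 (0.38).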

How the results depend on the processing

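The total of genes called in each of the 5 comparisons stayed within 1.5 times under DESeq2, RLE scaling, no filter, the replicate block and removal of small, ribosomal and mitochondrial RNA, but DESeq2 called 638 lower effects with GSK205 against 399. Counts for single gene lists moved more in places, as given with the lists, and the block left 1 rise of immediate early genes against 2 (0 when centred on genes of like span). Of lists with no call in a direction, DESeq2 and the fit of only the groups compared each called 1 fall of aryl hydrocarbon receptor genes, as did centring on like span, which also called 1 rise each of clock genes and fibroblast-type collagens. The fit of only the groups compared called 1 fall of these collagens, 1 rise of hedgehog and hypertrophy genes and 3 falls of interferon-stimulated genes. Centring on genes of like span left 2530 of 13068 genes called after loading at 9 h, against 3280 of the same genes without it (1389 higher and 1141 lower against 1961 and 1319). It kept 58.3% of the rises and 69.1% of the falls, and 5 genes were called in the opposite direction. With only the groups compared, loading at 3 h called 1021 genes against 1683, and the share that rose went from 77.4% to 63.8%. Leaving out 1 library gave 3024 to 3630 calls for loading at 9 h, 1129 to 2175 for the difference between times (lowest without loading replicate 1 at 3 h), 505 to 896 for the difference with GSK205 (lowest without DMSO replicate 2), 2198 to 3070 for loading with GSK205, and 1057 to 1759 for loading at 3 h (1057 without loading replicate 3 and 1110 without DMSO replicate 4). Same-numbered loading and DMSO libraries correlated at 0.08, 0.02, 0.04 and 0.02 in their deviations from the group means, and other pairs at -0.08 to 0.04. Deviations from a mean of 4 libraries sum to 0, so these values cannot decide whether libraries of the same number are paired. Loading replicates 1 and 3 correlated best with their own number, replicate 2 with DMSO replicate 3 (0.03) and replicate 4 alike with DMSO replicates 2 and 4. For loading against DMSO at 9 h the replicate block called 3763 genes, with 3926 without it.

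Of the 103 named genes called after loading at 9 h, 86 passed under each alternative that gave a value (at most 15), and no called gene changed direction. The other 17 failed in at least 1: AMPH, SMAD7, SMURF1, NOG, KLF6, ITPR1, RORA, MMP12, PLAT, MMP14, IL33, SOD3, ZNF45, DHRSX, UFSP1, MED12L and STX11. At low levels only large changes were called, so smaller ones were not detectable there at this depth.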

Other observations

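Counts for 4 further gene families, chosen after the data were seen and given with no test, lay on the higher side after loading at 9 h. Of 71 genes of cytosolic ribosomal proteins, which build the translating ribosome, 61 rose and none fell (median log2 fold change 0.24). Their median span was 4.22 kb, and relative to genes of like span the median was 0.11. Of 84 nuclear genes of the respiratory chain and ATP synthase 53 rose and 1 fell (median 0.23, span 7.94 kb, relative to like genes 0.13), whereas 11 of the 13 mitochondrially encoded subunit genes fell. These 84 were picked by symbol, with a pattern that also takes in assembly factors of complex I (NDUFAF genes). Of 44 proteasome genes 25 rose and 1 fell (median 0.17, span 12.6 kb, relative to like genes 0.09). Of 74 genes of mitochondrial ribosomal proteins 25 rose and none fell (median 0.16, span 9.78 kb, relative to like genes 0.06). Beside these 4 families, 12.5% of all genes tested rose and 11.2% fell at 9 h. At 3 h the ribosomal protein genes had 2 rises and 3 falls, and the respiratory genes 3 and 1, where 7.86% of all genes rose and 2.3% fell. The effect was higher at 9 h than at 3 h for 42 of the 71 and 34 of the 84 by the test of the difference, and lower for none. Over all genes it was higher for 4.99% and lower for 5.1%. With GSK205, 15 of the 71 rose and 2 fell, and 28 of the 84 rose and none fell, where 8.82% of all genes rose and 9.2% fell.

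LMO1, a transcriptional cofactor gene, and FAT2, a large cadherin gene, were called lower after loading, but few DMSO libraries carried the difference. LMO1 had 82.9, 6.68, 3.06 and 31.2 CPM in DMSO and 5.12, 2.92, 13.7 and 7.08 CPM after loading (log2 fold change -2.18 ± 0.71, adjusted p = 0.023). FAT2 had 0.248, 0.923, 0.817 and 11.9 CPM in DMSO and 0.758, 0.88, 1.3 and 0.62 CPM after loading (-1.99 ± 0.64, adjusted p = 0.022). Both overlapped between the groups, which kept them out of the largest falls in the report, and were picked after their values were seen.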
